A study of Mus musculus with 18 samples.

Results

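The Krüppel-like factors Klf2, Klf3, Klf4, Klf6, Klf7, Klf10, Klf12 and Klf13 were followed across 18 arrays of mouse naive CD4 T cells. Every probe set that the array annotation gives to one of these symbols alone was taken, which made 28 of 45037 probe sets on the array and 8 of 18193 genes. Klf3 had 7 probe sets, Klf6 and Klf12 5 each, Klf7 4, Klf13 3, Klf4 2, and Klf2 and Klf10 1 each. The arrays fell into 6 groups of 3: STAT3-deficient cells with interleukin 27 (IL-27), with interleukin 6 (IL-6) and in medium alone, and wild type (WT) cells with IL-27, with IL-6 and in medium alone. All cells were on the C57BL/6J strain and were sorted from spleen and lymph nodes by flow cytometry as naive CD4+ cells, CD44- and CD25- among other markers. In the STAT3-deficient mice Cd4-Cre, which is active from the double-positive stage of T cell development in the thymus, removed a floxed Stat3 allele (Stat3 tm1Dlv). Each cytokine was given at 20 ng/ml for 3 hours, and the series calls the triplicates biological. It asked what each cytokine does to naive CD4 T cells and which of these changes need STAT proteins. The sources used here give neither the sex and age of the mice nor whether the WT mice carried Cd4-Cre.

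Krüppel-like factors bind GC boxes and CACCC boxes in promoters through a set of zinc fingers at their end, and differ in whether they recruit activators or repressors. KLF2 keeps naive T cells quiescent and recirculating: it is driven by FOXO1, it drives the sphingosine receptor gene S1pr1, and it is lost when a T cell is activated. The receptors of IL-6 and IL-27 share the chain gp130, and both cytokines activate STAT3.

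The 5 genes that changed with IL-6 in WT cells (below, Klf2, Klf3, Klf6, Klf7 and Klf13) are shown by their promoters, since these hold boxes of the kind that the family itself binds. The 250 bases before the gene start in RefSeq (build GRCm38.p6) are printed 5′ to 3′ on the strand of the gene. They lie at chr8:72318812-72319061 on the plus strand, chr5:64803271-64803520 on the plus strand, chr13:5861239-5861488 on the plus strand, chr1:64121390-64121639 on the minus strand and chr7:63938916-63939165 on the minus strand. The Klf7 window lies inside the span of the gene, which the same annotation gives as 64029448 to 64122345 and which therefore has a further start upstream. Capitals mark GC boxes, written GGGCGG, the boxes that are named for their letters CACCC, and the core of a MEF2 site (TAAATTTA, which reads the same on both strands), each searched on both strands. In Klf3 and Klf13 a GC box and a CACCC box share 1 base, and in Klf3 a pair of GC boxes adjoin, so that each prints as a single run of capitals.
Klf2: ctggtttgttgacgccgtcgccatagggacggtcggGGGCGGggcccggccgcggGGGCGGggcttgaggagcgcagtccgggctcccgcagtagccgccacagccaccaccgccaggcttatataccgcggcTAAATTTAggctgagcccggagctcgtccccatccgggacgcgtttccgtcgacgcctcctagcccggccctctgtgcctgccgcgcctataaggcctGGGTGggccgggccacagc
Klf3: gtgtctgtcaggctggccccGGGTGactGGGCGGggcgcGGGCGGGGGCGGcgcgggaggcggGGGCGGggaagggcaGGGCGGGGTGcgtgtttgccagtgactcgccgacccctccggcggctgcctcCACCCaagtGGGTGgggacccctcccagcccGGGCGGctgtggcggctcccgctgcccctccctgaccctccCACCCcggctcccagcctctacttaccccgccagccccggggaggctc
Klf6: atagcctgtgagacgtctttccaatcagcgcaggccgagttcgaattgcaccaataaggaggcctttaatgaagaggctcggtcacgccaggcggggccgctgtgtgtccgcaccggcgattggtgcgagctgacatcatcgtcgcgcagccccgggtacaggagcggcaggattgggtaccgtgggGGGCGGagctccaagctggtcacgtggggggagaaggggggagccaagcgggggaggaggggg
Klf7: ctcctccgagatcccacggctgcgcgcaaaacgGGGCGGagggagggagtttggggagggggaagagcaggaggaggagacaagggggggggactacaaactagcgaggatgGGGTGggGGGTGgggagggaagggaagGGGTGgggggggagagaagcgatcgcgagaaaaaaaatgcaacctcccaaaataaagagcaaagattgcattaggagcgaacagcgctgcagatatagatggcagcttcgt
Klf13: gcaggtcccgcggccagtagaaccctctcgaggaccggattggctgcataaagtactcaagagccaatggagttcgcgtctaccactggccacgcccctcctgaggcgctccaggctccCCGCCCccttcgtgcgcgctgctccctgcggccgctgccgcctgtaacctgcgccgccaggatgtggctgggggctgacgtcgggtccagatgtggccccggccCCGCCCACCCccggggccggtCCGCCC

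At least 1 GC box stood in the promoters of all 5 of these genes, 6 of them in Klf3, against 32.9% of 27025 promoters of the same length that hold any. Klf4, which was not called with IL-6, had 4. CACCC boxes stood in Klf2, Klf3, Klf7 and Klf13 and in 51.3% of all promoters. The MEF2 letters stood in Klf2, beginning at position -117 counted back from the start, and in 0.529% of all promoters. MEF2 factors, activated by the kinase ERK5, are known to drive Klf2 through such a site. These windows were richer in G and C, at 59.2% to 78.4%, than the median promoter at 52.0%. The letters of a FOXO site (GTAAACA, in 3.09% of promoters), of a STAT site (TTCNNNGAA, in 7.18%) and of an interferon response element (GAAANNGAA, in 7.16%) were in none of the 7 Klf windows held here, which also include Klf4 and Klf12. Each match is a description of letters, not of binding.

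Of the 28 probe sets, 22 were bright enough to be tested, lying above the median of their own array on at least 3 arrays. The other 6 were all 5 of Klf12 and 1 of Klf13. Signal is the probe set brightness after quantile normalisation, in array units, and is compared only within a probe set. Each gene was read from its lead probe set, the one with the highest mean over the 18 arrays, and its other probe sets stand beside it. Changes are on the log2 scale and carry the standard error (SE) from a limma model fitted to 26868 probe sets on all 18 arrays. A change was called at a Benjamini-Hochberg adjusted p under 0.05 over all of these probe sets, and every group has n = 3 arrays. Klf2 lay at the 99.3rd percentile of mean signal among all probe sets, and the lead probe sets of Klf3, Klf6 and Klf13 lay above the 97th.

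The deleted gene, Stat3, was read on its probe set with the highest mean, where every STAT3-deficient array lay below every WT array of the same treatment. Its signal was 3349 to 4621 with IL-27 and 2213 to 2531 with IL-6 in STAT3-deficient cells, and 7215 to 8556 with IL-27 and 9193 to 10297.6 with IL-6 in WT cells. With IL-27 the STAT3-deficient arrays thus lay above the WT arrays in medium. The signal in medium was 1137, 1284 and 1127 in STAT3-deficient cells, against 2932, 2558 and 2290 in WT cells. It differed by -1.11 ± 0.12 (adjusted p = 1.21e-05), and its other 3 probe sets differed by -0.91, 0.12 and 0.81, the last called higher (adjusted p = 0.0344); which part of the transcript each reads was not analysed here. The median deposited signal per array was 131.5 to 190.3 on the STAT3-deficient arrays and 104.4 to 126.8 on the WT arrays, and the first principal component (33.8% of the variance) separated the genotypes. The ratio of 3′ to 5′ probe sets for Gapdh, a measure of RNA quality, was 0.6884 to 0.8293 on STAT3-deficient and 0.513 to 0.5639 on WT arrays. The summed signal of 7 of 8 B cell markers was 1049 to 1932 on STAT3-deficient and 473.7 to 674.6 on WT arrays. The 3 STAT3-deficient arrays numbered 3 stood apart in red blood cell markers, with a summed signal (3 of 5 listed markers) of 543.2 to 734.3, against at most 307.9 on any other array. Without these arrays 2 of 7 Klf genes were called between the genotypes in medium in place of 4, and the counts of the 8 other comparisons below did not move. The summed signal of 6 of 8 CD4 T cell markers was 52480 to 73200 on STAT3-deficient and 53460 to 74640 on WT arrays. Differences between genotypes in these values cannot be told apart from differences between the mice or the processing of their arrays.

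IL-6 lowered 4 of the 7 measured Klf genes in WT cells and raised 1. Klf2, Klf3, Klf6 and Klf7 fell by 1.43-fold to 1.53-fold within 3 hours and Klf13 rose by 1.42-fold. The 5 genes called compare with 6.19% of all probe sets called in this comparison, 2.97% higher and 3.22% lower. Klf4 and Klf10, both dim, were not called.

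Klf2 signal was 10884.5, 10909 and 11100.1 in WT cells with IL-6, against 17998.5, 16456.5 and 15951 in WT cells in medium. The groups lay far apart, and the arrays with IL-6 were close to each other. The change was -0.61 ± 0.07 (adjusted p = 8.5e-06), or 1.53-fold lower.

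Klf3, a repressor that acts through the corepressor CtBP, had a signal of 8053, 7150.2 and 6874 with IL-6, against 9979, 10238.5 and 12225 in medium. All 3 arrays with IL-6 lay below all 3 in medium. The change was -0.55 ± 0.12 (adjusted p = 0.00604).

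Klf6, a widely expressed activator known as a tumour suppressor, had a signal of 5000.3, 4986 and 4758 with IL-6, against 7475, 6986 and 6615 in medium. Again the groups did not overlap, and the change was -0.51 ± 0.10 (adjusted p = 0.00333). With the arrays centred on their medians in place of quantile normalisation the adjusted p was 0.14, at a change of -0.51.

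Klf7, known for its part in nerve cell growth, had a signal of 1906, 2032 and 1885 with IL-6, against 2962, 3008 and 2677 in medium. Every array with IL-6 was lower than every array in medium. The change was -0.56 ± 0.13 (adjusted p = 0.01), and without the WT medium array numbered 2 it was -0.53 with an adjusted p of 0.0518.

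Klf13, an activator of the chemokine gene Ccl5 in T cells, moved the other way. Its signal was 7092, 6859 and 7883 with IL-6, against 5158, 4807 and 5414 in medium, with no overlap. The change was 0.50 ± 0.08 (adjusted p = 0.000432). The groups did not overlap for these 5 lead probe sets, as for 23.1% of all probe sets in this comparison.

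**Figure D1:**
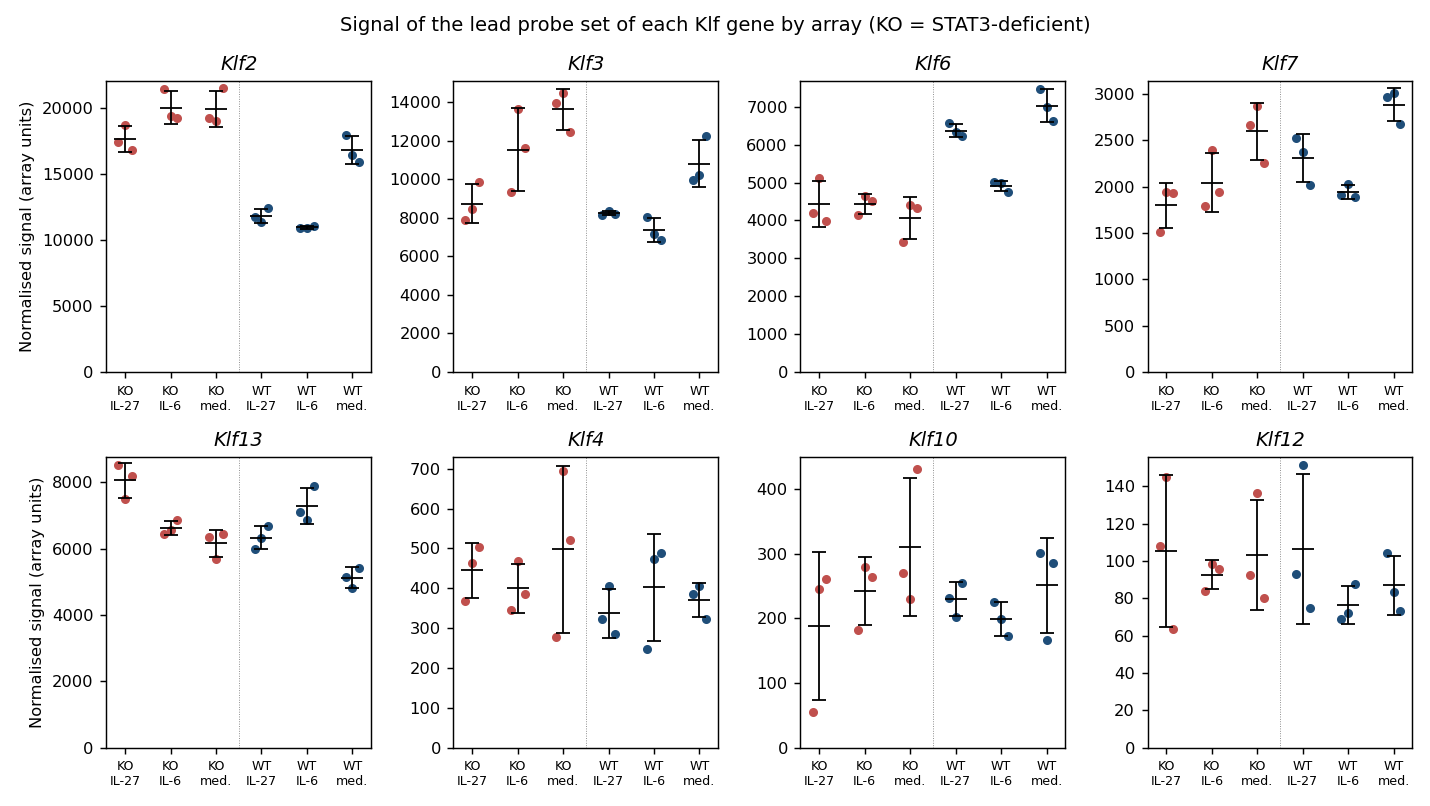
Normalised signal of the lead probe set of each Klf gene (vertical axes, array units, each from 0) on every array, with a point per array and bars for the mean ± SD of the 3 arrays of a group; KO stands for STAT3-deficient cells and WT for wild type. In STAT3-deficient cells Klf2 stood at 19244 to 21445 with IL-6 and at 19015 to 21518 in medium, while in WT cells it stood at 10884.5 to 11100.1 with IL-6 and at 15951 to 17998.5 in medium.

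The other probe sets of these genes mostly moved with the lead. Of 22 probe sets tested, 10 were called lower and 2 higher with IL-6 in WT cells, and 18 had a change below 0. For Klf3, 4 of 7 probe sets fell, by 0.45 to 0.82 on the log2 scale, and the 3 not called had changes of -0.90 to -0.11 at lower signals. The second and the third brightest Klf3 probe sets changed more than the lead, at -0.79 ± 0.10 (adjusted p = 1.95e-05) and -0.82 ± 0.12 (adjusted p = 0.000201).

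For Klf6, 3 of 5 probe sets fell, the largest change being -0.68 ± 0.15, and the other pair stood at -0.31 and -0.10. For Klf7, 2 of 4 were called and all 4 changes lay between -0.63 and -0.38; the 4 were designed from a single sequence record and share their source. Both tested Klf13 probe sets rose, the second by 0.56 ± 0.11 (adjusted p = 0.00277).

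**Figure D2:**
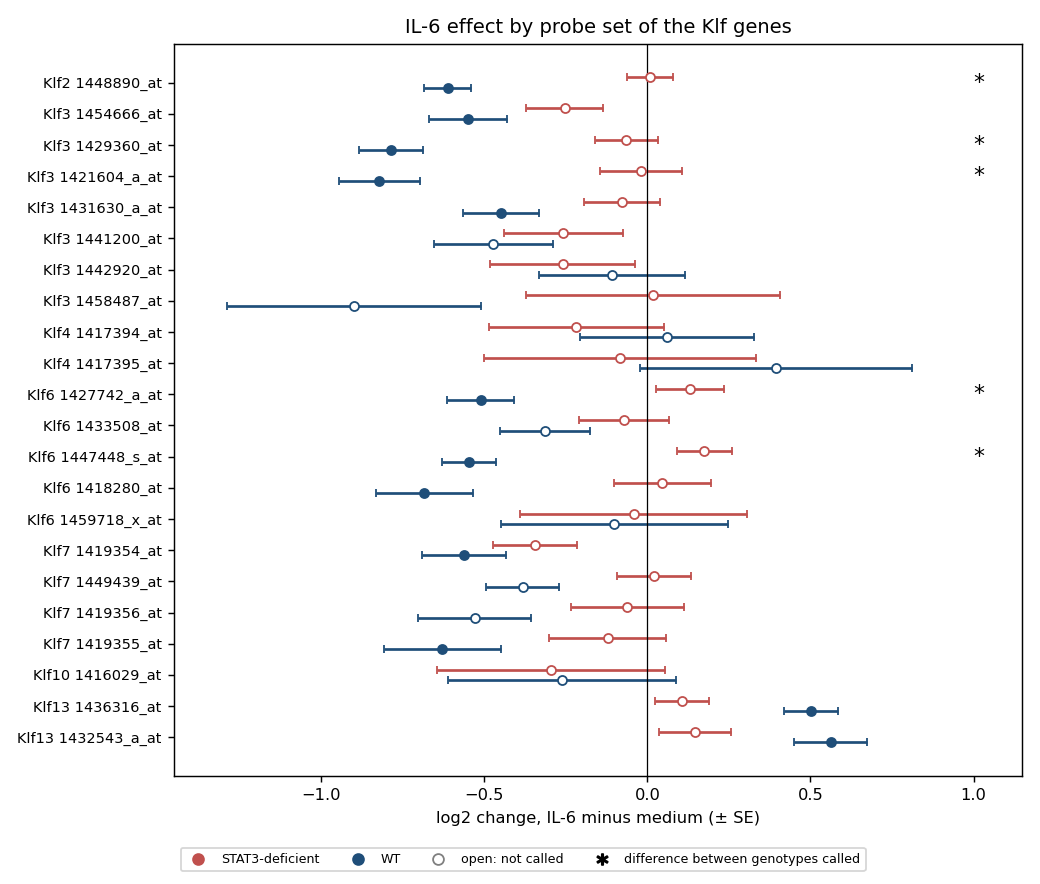
Change with IL-6 (log2 scale, IL-6 minus medium, ± SE from limma) for each of the 22 tested Klf probe sets in STAT3-deficient (red, upper of each pair) and WT cells (blue), with filled points for adjusted p under 0.05 and stars where the difference between genotypes was called. No probe set is filled in STAT3-deficient cells, and 12 are in WT cells, 10 of them below 0.

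Other markers moved with these changes in WT cells. The summed signal of 6 of 8 CD4 T cell markers was 53460 to 55190 with IL-6 and 70600 to 74640 in medium. That of 7 of 8 CD8 T and NK cell markers was 2027 to 2179 with IL-6 and 3012 to 3469 in medium. This second sum fell mainly through Klrd1, with means of 585.6 with IL-6 and 1747 in medium, while Cd8b1 stood at 839.9 and 810. Of the 4 tested markers of that list 1 was called lower, and their median change was 0.02. In such bulk samples fewer cells of a type and less RNA per cell cannot be told apart, and the part of these shifts in the Klf changes was not tested.

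In STAT3-deficient cells no Klf gene was called with IL-6. None of the 7 genes or 22 probe sets passed the limma test, while 2 genes and 2 probe sets had an unadjusted p under 0.05, and 1.43% of all probe sets were called (1.33% higher and 0.0968% lower). Klf2 signal was 21445, 19406 and 19243.5 with IL-6, against 19243.5, 19015 and 21518 in medium. These groups overlapped, and 1 of the 7 genes had groups that did not, as for 11.3% of all probe sets. The Klf2 change was 0.01 ± 0.07 with a 95% interval of -0.14 to 0.16.

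The difference between the genotypes in the IL-6 effect was itself tested, as STAT3-deficient minus WT. It was called for Klf2 and Klf6, 2 of 7 genes, against 2.2% of all probe sets (1.24% higher and 0.957% lower). For Klf2 it was 0.62 ± 0.10 (adjusted p = 0.00149), and the call held under every one of 31 alternative settings, with adjusted p-values from 0.000498 to 0.0417. The change of 0.01 ± 0.07 in STAT3-deficient cells thus stood beside -0.61 ± 0.07 in WT cells.

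For Klf6 the difference was 0.64 ± 0.15 (adjusted p = 0.0216). Its signal in STAT3-deficient cells was 4142, 4634 and 4509 with IL-6, against 3436, 4416 and 4332 in medium, a change of 0.13 ± 0.10. On this lead probe set the level in STAT3-deficient cells in medium already lay below all 3 WT arrays with IL-6. The other Klf6 probe sets did not show this. On the second brightest the STAT3-deficient medium arrays lay above the WT arrays with IL-6, at 4281 to 4886 against 2652 to 3211. So they did on the third brightest, at 2629 to 2842 against 2075 to 2366, and on the rest these groups overlapped. The call was lost on leaving out any 1 of 6 arrays (WT medium 1 and 2, WT IL-6 3, STAT3-deficient medium 1, STAT3-deficient IL-6 2 and 3), at differences of 0.53 to 0.65 and adjusted p-values from 0.0507 to 0.0712, and with centring on medians (0.92, adjusted p = 0.0781) or no variance trend (adjusted p = 0.0861).

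Of 5 Klf6 probe sets, 2 were called for this difference, the lead and the third brightest. The others stood at 0.24 ± 0.19 (the second brightest, adjusted p = 0.726), 0.73 ± 0.21 (adjusted p = 0.0927) and 0.06 ± 0.49. The third brightest read 3031, 3252 and 3035 in STAT3-deficient cells with IL-6, against 2629, 2842 and 2777 in medium. In WT cells it read 2366, 2075 and 2365 with IL-6, against 3334, 3289 and 3343 in medium. All 3 arrays with IL-6 were above medium in STAT3-deficient cells and below medium in WT cells, and the difference between genotypes was 0.72 ± 0.12 (adjusted p = 0.0018).

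For Klf3 the probe sets differed in whether this difference was called, and their estimates were not tested against each other. The lead gave 0.30 ± 0.17 (adjusted p = 0.553), with the STAT3-deficient arrays with IL-6 spread over 9329, 13667 and 11616 against 13964, 14490.1 and 12427 in medium. The second and the third brightest were called, at 0.72 ± 0.14 (adjusted p = 0.0062) and 0.80 ± 0.18 (adjusted p = 0.0176). The second read 6285, 5684 and 5308 in STAT3-deficient cells with IL-6, against 5763, 5936 and 6339 in medium, while in WT cells it read 4205, 3806.5 and 3520.2 with IL-6, against 7103, 6447 and 6373 in medium. It overlapped between IL-6 and medium only in the STAT3-deficient cells.

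Klf7 and Klf13 were called with IL-6 in WT cells, but their difference between genotypes was not called. For Klf13 it was -0.40 ± 0.12 (adjusted p = 0.0983), with STAT3-deficient signals of 6442, 6558 and 6859 with IL-6, against 6339, 5696 and 6433 in medium. For Klf7 it was 0.22 ± 0.18 (adjusted p = 0.746, 95% interval -0.17 to 0.60), with 1788, 2398 and 1943 with IL-6, against 2660.2, 2866 and 2258 in medium. The Klf13 groups did not touch and the Klf7 groups overlapped. The Klf7 interval holds both 0 and a difference as large as the whole WT change.

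IL-27 lowered Klf2 in WT cells as well, and no other lead probe set was called there. That is 1 of 7 genes, and 2 of 22 probe sets, against 3.04% of all probe sets (1.98% higher and 1.06% lower). Klf2 signal was 11779.6, 11355 and 12408.5 in WT cells with IL-27, against the medium values above. All 3 arrays lay below all 3 in medium, and the change was -0.50 ± 0.07 (adjusted p = 0.00015), or 1.42-fold lower. Centring on medians left the change at -0.50 with an adjusted p of 0.148. The summed CD4 T cell markers were 54140 to 58410 with IL-27 and 70600 to 74640 in medium. Those of CD8 T and NK cells were 2215 to 2605 and 3012 to 3469. In this second sum Klrd1 had means of 821.9 with IL-27 and 1747 in medium, while Cd8b1 stood at 910.6 and 810. The part of these marker shifts in the Klf2 change was not tested.

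The other genes called with IL-6 were not called by their leads with IL-27 in WT cells. Klf3 changed by -0.39 ± 0.12, adjusted p = 0.101; its second probe set fell by 0.46 ± 0.10 (adjusted p = 0.00909). Klf7 changed by -0.32 ± 0.13, adjusted p = 0.268, Klf6 by -0.14 ± 0.10, adjusted p = 0.659, and Klf13 by 0.30 ± 0.08, adjusted p = 0.0527. Klf13 lay just outside the threshold and was called under 6 of 31 alternatives (lowest adjusted p = 0.0108), and Klf3 under 3, of which 1 left out the STAT3-deficient IL-6 array numbered 1 (adjusted p = 0.0396). For Klf2, Klf3, Klf6, Klf7 and Klf13 the IL-27 and medium arrays did not overlap, as for 19.4% of all probe sets.

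Signals with IL-27 in WT cells were 8146, 8339.5 and 8211 for Klf3 and 6564, 6322 and 6231 for Klf6. For Klf7 they were 2527, 2370.2 and 2019.5, and for Klf13 5994, 6306 and 6677. For each of these genes and for Klf2 the mean with IL-27 lay between the means with IL-6 and in medium.

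Set directly against each other in WT cells, IL-27 and IL-6 gave no called difference in a lead probe set (0 of 7 genes, 2 with an unadjusted p under 0.05 by limma, against 2.32% of all probe sets called, 1.28% higher and 1.04% lower). The closest was Klf6, at 0.37 ± 0.10, adjusted p = 0.0746, 95% interval 0.16 to 0.59. On the third brightest of its probe sets the difference was called, at 0.37 ± 0.08, adjusted p = 0.0187, with 3036, 2892 and 2894 in cells with IL-27, against 2366, 2075 and 2365 in cells with IL-6. Leaving out the STAT3-deficient medium array 1 or the STAT3-deficient IL-27 array 2 brought the lead to an adjusted p of 0.0323 or 0.0428. For Klf2 the difference was 0.11 ± 0.07, with an interval of -0.04 to 0.26. The arrays of the cytokines did not overlap for 4 of the 7 genes, as for 17.2% of all probe sets.

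In STAT3-deficient cells 3 Klf genes were called with IL-27, against 3.61% of all probe sets called (2.63% higher and 0.983% lower). They were Klf3, Klf7 and Klf13, none of which was called by its lead with IL-27 in WT cells. Klf3 signal was 7905, 8439.8 and 9880.0 with IL-27, against 13964, 14490.1 and 12427 in medium. The change was -0.64 ± 0.12 (adjusted p = 0.00251), or 1.56-fold lower, the largest among the 7 Klf3 probe sets, whose changes lay between -0.64 and -0.29. Of these 2 were called, the lead and the second brightest, at -0.41 ± 0.10 (adjusted p = 0.021). The third brightest stood at -0.33 ± 0.12 (adjusted p = 0.204) with overlapping groups. Klf13 signal was 8510.2, 7488 and 8176 with IL-27, against 6339, 5696 and 6433 in medium, a change of 0.39 ± 0.08 (adjusted p = 0.00825) or 1.31-fold higher. On their leads the groups of both genes lay apart, as they did for 4 of the 7 genes and for 16.1% of all probe sets. The second Klf13 probe set rose too, by 0.48 ± 0.11, adjusted p = 0.0164.

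Klf7 signal was 1514, 1945 and 1931 with IL-27 in STAT3-deficient cells, against 2660.2, 2866 and 2258 in medium. The change was -0.52 ± 0.13 (adjusted p = 0.0255), but its other 3 probe sets stood between -0.17 and 0.21 and were not called. The Klf7 call was lost without the medium array 1 or 2 or the IL-27 array 1 of the STAT3-deficient cells (changes of -0.50, -0.45 and -0.41, adjusted p from 0.0979 to 0.166), and that of Klf13 without the medium array 2 or the IL-27 array 1 (0.33 and 0.35, adjusted p = 0.0582 and 0.0551). Centring on medians ended the calls of Klf3 (-0.28, adjusted p = 0.446) and Klf7 (-0.25, adjusted p = 0.597). With no variance trend the calls of Klf7 and Klf13 were lost (adjusted p = 0.0657 and 0.0562 by limma). Both were lost too with only the arrays compared (0.144 and 0.105), and that of Klf7 with the deposited scaling (0.078). The summed CD4 T cell markers were 52480 to 57470 with IL-27 and 65040 to 73200 in medium, and their part in these changes was not tested.

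Klf2 signal was 17401, 18753 and 16822 in STAT3-deficient cells with IL-27. After quantile normalisation the 3 arrays lay just below the medium arrays, at a change of -0.17 ± 0.07, adjusted p = 0.256. This direction turned with the scaling. The change was 0.005 with the deposited scaling, where the groups overlapped, and 0.20 with centring on medians, neither called. No direction is therefore given for it. The difference between genotypes in the IL-27 effect on Klf2 was 0.33 ± 0.10 (adjusted p = 0.611, 95% interval 0.12 to 0.54). No Klf gene passed this test (0 of 7, 1 with an unadjusted p under 0.05 by limma), and it called 0.00744% of all probe sets, 0.00372% higher and 0.00372% lower.

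Between the cytokines in STAT3-deficient cells, 0 of 7 Klf genes were called (3 with an unadjusted p under 0.05 by limma, and 0.205% of all probe sets called, 0.197% higher and 0.00744% lower). The differences, IL-27 minus IL-6, were -0.39 ± 0.12 for Klf3, 0.28 ± 0.08 for Klf13 and -0.18 ± 0.07 for Klf2. The arrays of the cytokines did not overlap for 2 of the 7 genes, as for 7.85% of all probe sets. The comparisons within a genotype share their medium or cytokine arrays, so their values for a gene are not independent of each other.

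**Figure D3:**
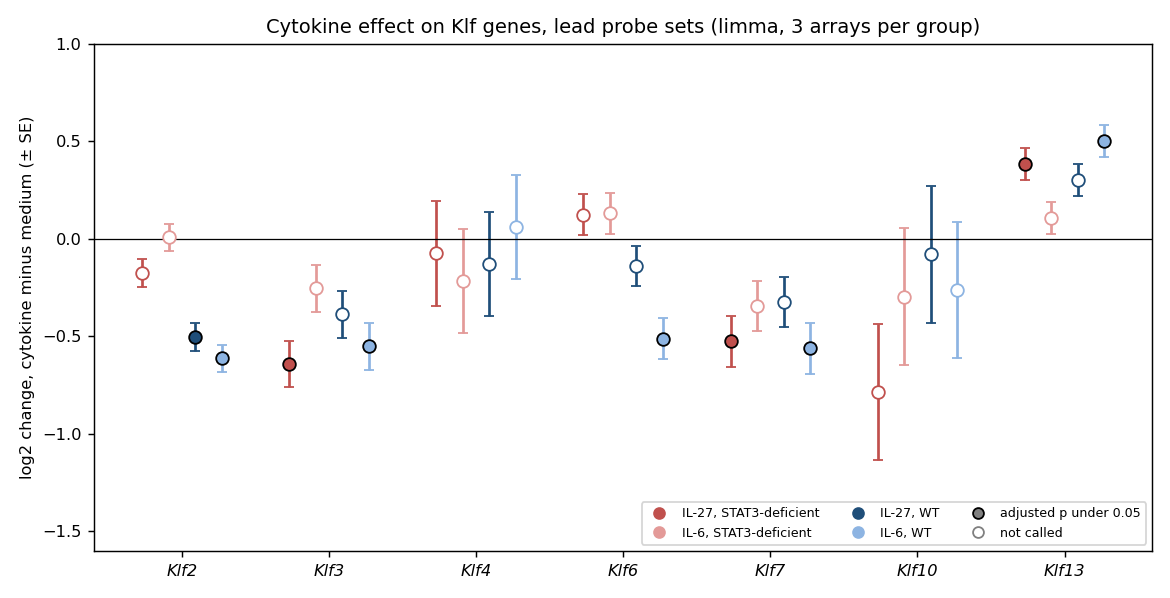
Change of the lead probe set of each measured Klf gene (vertical axis, log2 scale, cytokine minus medium, ± SE from limma) with IL-27 and IL-6 in STAT3-deficient (reds) and WT cells (blues), filled where the adjusted p is under 0.05. Klf2 is filled in WT cells only, at -0.50 with IL-27 and -0.61 with IL-6, Klf3 reaches -0.64 with IL-27 in STAT3-deficient cells, and Klf13 lies above 0 throughout.

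In medium, before any cytokine, the genotypes differed in 4 of 7 lead probe sets, 3 higher and 1 lower, against 24.2% of all probe sets called (11.4% higher and 12.8% lower). The groups did not overlap for 4 of the 7, as for 40.3% of all probe sets. Klf6 was lower in STAT3-deficient cells, with 3436, 4416 and 4332, against 7475, 6986 and 6615 in WT cells. The groups lay well apart, at a difference of -0.79 ± 0.10 (adjusted p = 5.81e-05), or 1.73-fold lower. It was -0.999 with the deposited scaling and -1.54 with centring on medians, where the median of all probe sets was 0.183 and -0.357 against 0.00341 here, so that relative to that median Klf6 stood at -0.80 here and at -1.18 under both others.

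Klf6 was lower on 3 of its 5 probe sets, while the second brightest stood at 0.32 ± 0.14, adjusted p = 0.0989. With the B cell and myeloid marker level as a covariate the lead stood at -0.75 ± 0.24 with an adjusted p of 0.0592. The summed B cell markers did not overlap between the genotypes, so this fit separates marker level from genotype poorly. The genotypes differ in B cell markers, RNA quality values and array brightness as given above, and these cannot be told apart from the deletion for any difference in medium.

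Klf2, Klf3 and Klf13 were called higher in STAT3-deficient cells, but their direction turned with the scaling. The differences were 0.25 ± 0.07 for Klf2 (adjusted p = 0.0187), 0.34 ± 0.12 for Klf3 (adjusted p = 0.0481) and 0.26 ± 0.08 for Klf13 (adjusted p = 0.0273). With centring on medians they were -0.58, -0.50 and -0.51, each called lower, and with the deposited scaling they were -0.044, 0.04 and 0.03 with none called. The third Klf3 probe set, at -0.41 ± 0.12, adjusted p = 0.023, went against its lead. No direction is therefore given for these 3 genes in medium. Klf7 was not called by its lead (-0.15 ± 0.13), but was with centring on medians (-0.87, adjusted p = 0.000407; -0.33 and adjusted p = 0.0514 with the deposited scaling), and 1 of its other probe sets was lower, at -0.66 ± 0.18, adjusted p = 0.0127.

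Ordered by mean signal over the 6 groups, Klf2 was 20031.5 ± 1227 and 19926 ± 1384 (SD, n = 3) in STAT3-deficient cells with IL-6 and in medium, whose ranges overlapped. STAT3-deficient cells with IL-27 (17659 ± 991) and WT cells in medium (16802 ± 1067) overlapped as the next pair. WT cells with IL-27 (11848 ± 529.8) and with IL-6 (10964 ± 118) came last, each apart from its neighbours.

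For the lead probe set of Klf6 the order was led by the WT groups in medium (7025 ± 431), with IL-27 (6372 ± 172) and with IL-6 (4915 ± 136). All STAT3-deficient groups came after them. The last 4 groups in that order overlapped with their neighbours. The second brightest Klf6 probe set put the genotypes the other way round. Its means in medium, with IL-6 and with IL-27 were 4525, 4334 and 4233 in STAT3-deficient cells, against 3646, 2911 and 3613 in WT cells. For Klf13 STAT3-deficient cells with IL-27 stood highest (8058 ± 521) and WT cells in medium lowest (5126 ± 305), and only that last group lay apart from its neighbour. Orders across genotypes carry the scaling limit given for medium, and those of Klf2 and Klf13 are of the lead probe set alone. The place of Klf2 with IL-27 against medium in STAT3-deficient cells also turned with the scaling, as given above.

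Klf4, one of the factors used to reprogram cells to pluripotency, and Klf10, an early gene of the TGF-beta response, were dim and gave no call in any comparison. With the marker covariate Klf10 was called between the genotypes in medium, at 2.22 ± 0.64 (adjusted p = 0.0394) against 0.27 ± 0.35 without it. That fit carries the limit of the covariate given for Klf6 in medium. On its lead probe set Klf4 lay between 276.7 and 694 in STAT3-deficient and between 247.2 and 487.5 in WT cells. The changes of this lead with cytokine lay between -0.22 and 0.06, with an SE of 0.27. The other Klf4 probe set changed by 0.48 with IL-27 and 0.40 with IL-6 in WT cells. In STAT3-deficient cells it changed by 0.22 and -0.08, with an SE of 0.42 throughout and no call. Klf10 lay at 56.0, 246 and 262 in STAT3-deficient cells with IL-27, against 271, 229.7 and 431 in medium. The first of these IL-27 arrays stood far below the other 2, and the change of -0.78 ± 0.35 (adjusted p = 0.307) was -0.22 without it. Klf12, a repressor that recruits CtBP, had a lead signal of 63.5 to 151.4 over all arrays, above the array median on 2 of 18 arrays, and no Klf12 probe set was tested.

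Target and partner genes of the family were counted from lists that had been chosen with earlier results of these data known. The list of FOXO and KLF2 genes of homing and quiescence had 16 of 17 members measured. With IL-6 in WT cells 6 fell and 1 rose, against 6.19% of all probe sets called. The median change of the list was -0.23, beside -0.01 over all probe sets tested. Itga4, an integrin chain for entry into tissues, changed by -1.82 ± 0.12 (adjusted p = 6.99e-09) and its partner Itgb7 by -1.01 ± 0.13 (adjusted p = 4.52e-05). Itga6, the integrin chain that binds laminin, changed by -0.95 ± 0.08, while Cdkn1a, the cell cycle inhibitor p21, rose by 1.46 ± 0.42 (adjusted p = 0.0411). The count was 8 with the deposited scaling and 5 with centring on medians.

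With IL-6 in STAT3-deficient cells 0 of the 16 were called, against 1.43% of all probe sets. Of the 16, 2 had an unadjusted p under 0.05 by limma, and the median change was -0.14. The difference between genotypes was called for 4, against 2.2% of all probe sets (1.24% higher). Each of the 4 was higher in STAT3-deficient than in WT cells. Itga4 stood at 1.61 ± 0.17, Itgb7 at 1.24 ± 0.19 and Itga6 at 0.76 ± 0.12. Il7r, the IL-7 receptor chain that sustains naive T cells, stood at 0.54 ± 0.13 (adjusted p of the 4 from 2.25e-05 to 0.0359 by limma). S1pr1, the KLF2 target for exit from lymph nodes, did not follow Klf2 in a called way: its WT change was -0.22 ± 0.10 with IL-27 (adjusted p = 0.331) and 0.21 ± 0.10 with IL-6 (adjusted p = 0.316).

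With IL-27, 2 of the 16 fell in STAT3-deficient cells (median -0.33) and 5 in WT cells (median -0.25). Of all probe sets 0.983% and 1.06% were called lower in these comparisons, with medians of -0.02 and -0.03. In STAT3-deficient cells Itga6 changed by -0.32 ± 0.08 and Ccr7, the chemokine receptor for entry into lymph nodes, by -0.30 ± 0.07. In WT cells Itga4 changed by -0.69 ± 0.12, Foxo1, the factor upstream of Klf2, by -0.48 ± 0.12, Itga6 by -0.45 ± 0.08 and Il7r by -0.42 ± 0.09. Between the cytokines in WT cells, IL-27 minus IL-6, Itga4 (1.13 ± 0.12), Itgb7 (0.91 ± 0.13) and Itga6 (0.50 ± 0.08) were higher with IL-27 and S1pr1 (-0.43 ± 0.10, adjusted p = 0.0196) was lower. Of all probe sets 1.28% were called higher and 1.04% lower there. In STAT3-deficient cells 0 of 16 were called between the cytokines, against 0.205% of all probe sets. In the IL-27 difference between genotypes 0 of 16 were called, against 0.00744%. At an unadjusted p under 0.05 by limma these were 4 and 1 of the 16. These counts moved with the scaling: in STAT3-deficient cells 2 became 0 with the deposited scaling and with centring on medians, and in WT cells 5 became 3 and 1.

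**Figure D4:**
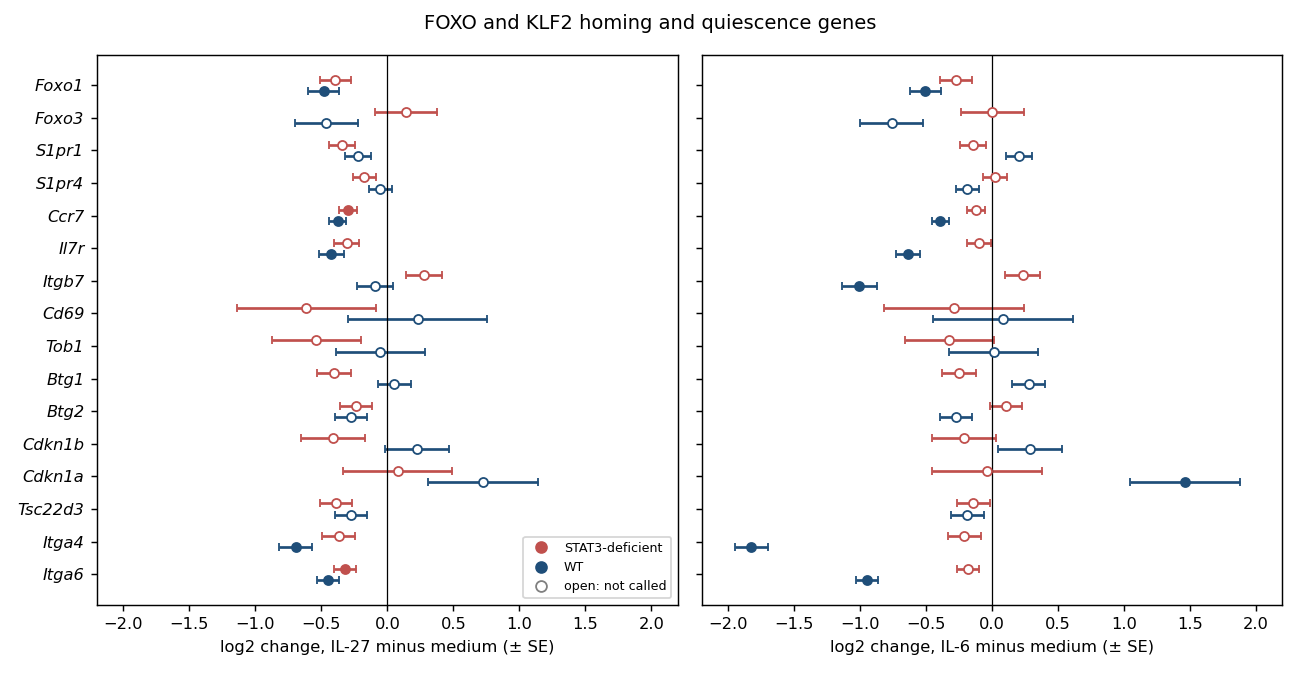
Change with IL-27 (left) and IL-6 (right) for the 16 measured genes of the FOXO and KLF2 list (log2 scale, cytokine minus medium, ± SE from limma) in STAT3-deficient (red, upper of each pair) and WT cells (blue), with open points where a change was not called. Itga4, Itgb7 and Itga6 lie at -1.82, -1.01 and -0.95 with IL-6 in WT cells, and no gene is filled with IL-6 in STAT3-deficient cells.

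Among 15 measured cofactors and regulators of the family, of 16 listed, 1 rose and 1 fell with IL-6 in WT cells, against 2.97% and 3.22% of all probe sets. Kat2b, the acetyltransferase PCAF, rose in every comparison of a cytokine with medium, by 1.28 ± 0.16 with IL-27 and 0.91 ± 0.16 with IL-6 in STAT3-deficient cells, and by 1.28 ± 0.16 with IL-27 and 1.58 ± 0.16 with IL-6 in WT cells. The 4 adjusted p-values lay between 2.05e-06 and 0.00282. Mef2d, of the factors that read MEF2 sites such as the one printed above, changed by -0.40 ± 0.09 (adjusted p = 0.0114) with IL-27 in STAT3-deficient cells and by -0.55 ± 0.09 (adjusted p = 0.000398) with IL-6 in WT cells. Its other changes were -0.19 ± 0.09 with IL-6 in STAT3-deficient cells and -0.29 ± 0.09 with IL-27 in WT cells, neither called. The list's median change with IL-6 in WT cells was 0.00.

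The TGF-beta pathway, of which Klf10 is an early target, had 12 of 13 listed genes measured. With IL-6 in WT cells 3 fell, against 3.22% of all probe sets called lower, with a list median of -0.24 beside -0.01 over all probe sets: Smad3, the signal transducer of the receptor, at -1.04 ± 0.12 (adjusted p = 5.5e-06), the ligand gene Tgfb1 at -0.51 ± 0.12 and the inhibitor Smad7 at -0.40 ± 0.09. With IL-27 Smad3 fell in both genotypes, by 0.78 ± 0.12 in STAT3-deficient and by 0.76 ± 0.12 in WT cells. The receptor gene Tgfbr2 changed by -0.40 ± 0.08 with IL-27 in STAT3-deficient cells. With IL-6 there 0 of 12 were called, against 1.43% of all probe sets (1 of the 12 at an unadjusted p under 0.05 by limma). The genotype difference in the IL-6 effect on Smad3 was 0.67 ± 0.16 (adjusted p = 0.035). It was not called in 13 of the alternatives, among them leaving out any 1 of the WT IL-6 or STAT3-deficient IL-6 arrays.

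The rest of the KLF and SP family, which shares the zinc fingers and the boxes, gave 0 calls among 11 measured genes of 18 listed for either cytokine in either genotype, and 0 in the genotype differences. In these comparisons 0.00744% to 6.19% of all probe sets were called, so that 0 of 11 does not set this list apart. At an unadjusted p under 0.05 by limma 1 of the 11 differed from medium with IL-27 in WT cells and 3 with IL-6; in STAT3-deficient cells these were 3 and 1. In medium the genotypes differed in 1 of 11 of these genes (Klf5, higher by 0.94 ± 0.17), in 6 of 15 cofactors, in 6 of 16 FOXO and KLF2 genes and in 9 of 12 TGF-beta genes, against 24.2% of all probe sets. Those counts carry the scaling limit given for medium.

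Over the 18 arrays, the genes closest to Klf2 among 11976 measured genes were Arhgef18 (Pearson r = 0.976), Mrtfa (0.969) and Jak1 (0.967), and within the 9 STAT3-deficient arrays these gave 0.793, 0.718 and 0.702 and within the 9 WT arrays 0.96, 0.965 and 0.951. For Klf3 they were Tent5c (0.919), Fam117b (0.914) and Fyb (0.906). For Klf6 they were Aldoc (0.916), Pop5 (0.905) and Ube2g1 (0.889). Within the STAT3-deficient arrays these 3 gave 0.778, 0.475 and 0.732, and within the WT arrays 0.777, 0.931 and 0.683. For Klf7 they were Erg28 (0.872), Acadm (0.865) and Dusp12 (0.836). For Klf13 they were Icam1 (0.881), Fam102a (0.873) and Nup210 (0.857). Klf4 was closest to Bop1 (0.821), Ehd4 (0.751) and Mt1 (0.749), and Klf10 to Zdhhc3 (0.816), Zfp367 (0.814) and Ube2e3 (0.814). Within the family, Klf7 and Klf13 ran opposite to each other (r = -0.89), and Klf2 and Klf3 together (0.725). The arrays share their groups and their normalisation, so these values describe a likeness of pattern over the 6 groups and no more.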

How the data were processed

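Total RNA of sorted naive CD4 T cells was labelled with biotin, per the labels' protocols, and hybridised to arrays of the type Mouse Genome 430 2.0 (Affymetrix), 18 in all. The authors deposited linear intensity, 1 signal per probe set. The submitters' processing notes name GCOS, with its version and summarisation method not given in the sources used here. On every array the deposited intensity has the same mean of 500 after trimming at both ends.

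From these values, log2 of the signal plus 32 was taken and quantile normalised with limma 3.58.1 (R 4.3.3). Of 45101 probe sets, 64 controls were left out, and 26868 above their array's median on at least 3 arrays were kept. Printed signals are normalised values turned back to the linear scale; the added constant shrinks changes of dim genes. A mean per group was fitted to all 18 arrays (12 residual and 6.39 prior degrees of freedom, empirical Bayes with a variance trend), and 9 comparisons were tested two-sided with Benjamini-Hochberg adjustment over probe sets. The median SE was 0.207 for a comparison and 0.292 for a difference between genotypes, and this precision is set by the number of arrays. Named list genes are up to 4 called per list and comparison with the largest change. The Klf genes, lists and tests were chosen with earlier results of these data known. Alternatives, of which the marker covariate, the fit without the STAT3-deficient arrays numbered 3 and all list counts were chosen after seeing the data, covered scaling, added constant, filter, 1 probe set per gene, variance trend, array weights, arrays in the fit, sample numbers as a block, marker level as a covariate and each array left out. The S1pr1 values with each cytokine against medium and the probe sets described beside a lead were picked out after their values were seen. Deviations of same-numbered arrays from their group means correlated at -0.147 to 0.337 within a genotype, over 0.1 in 10 of 18 pairs; since the other 8 were not, and no label gives the numbers a meaning, they were not taken to pair the arrays.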

Additional observations from a re-analysis of the deposited data

Results flagged for a closer look

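The IL-6 effect on Klf2 differed between the genotypes by a test of the difference itself. The difference, STAT3-deficient minus WT, was 0.62 ± 0.10 on the log2 scale (limma, SE, adjusted p = 0.00149, n = 3 arrays per group).

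The IL-6 effect on Klf6 also differed between the genotypes by the same test, by 0.64 ± 0.15 (adjusted p = 0.0216), with the losses on leaving out single arrays given in the report. Groups of 3 arrays are too small for a test of single outlying arrays.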

How the results depend on the processing

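Over 31 alternatives, 1867 of 1944 gene changes kept their direction and their side of the threshold, or were not called in either fit; 56 lost a call, 17 gained one and 4 were reversed. Among 1479 changes not called in the main fit, 44 had the other sign under the alternative and were not called there either. The reversed ones were all in medium, STAT3-deficient minus WT: Klf2 at -0.044 with the deposited scaling (adjusted p = 0.734) and at -0.58 with centring on medians (adjusted p = 0.00631), and Klf3 at -0.50 (adjusted p = 0.00679) and Klf13 at -0.51 (adjusted p = 0.00582) with centring on medians. The cause was not tested beyond the shift of the median of all probe sets, which centring also moved to 0.119 for IL-6 in STAT3-deficient cells, to 0.174 for the IL-6 and to 0.199 for the IL-27 difference between genotypes.

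Not every move in the counts of Klf genes called is listed here. Among the smaller ones, Klf6 lost its call with IL-6 in WT cells with centring on medians (adjusted p = 0.14 by limma). With IL-27 in STAT3-deficient cells Klf7 lost its call with the deposited scaling (adjusted p = 0.078). In medium Klf3 lost its call with 1 added before log2 or no filter on dim probe sets, and Klf13 with only the arrays compared. The larger moves were as follows. With IL-27 in WT cells 1 became 0 with centring on medians, 3 with array weights, and 2 with the deposited scaling, a filter on all 18 arrays, 1 probe set per gene, only the arrays compared, or the marker covariate. Between IL-27 and IL-6 in WT cells 0 became 1 with array weights or only the arrays compared. With IL-27 in STAT3-deficient cells 3 became 1 with centring on medians, no variance trend, or only the arrays compared. The IL-6 difference between genotypes went to 1 of 2 with centring or no variance trend. In medium 4 became 1 with the deposited scaling or no variance trend, and 2 without the STAT3-deficient arrays numbered 3. With the covariate, which separates marker level from genotype poorly, all 4 calls were lost and the 1 called was Klf10 (2.22 ± 0.64, adjusted p = 0.0394). With centring there were 5, all lower (Klf2, Klf3, Klf6, Klf7 and Klf13). On leaving out each array in turn, the counts ranged from 4 to 5 with IL-6 in WT cells, from 1 to 2 with IL-27 in WT cells, from 0 to 1 between the cytokines in WT cells, from 1 to 3 with IL-27 in STAT3-deficient cells, from 1 to 2 for the IL-6 difference and from 1 to 4 in medium. They stayed at 0 to 0 with IL-6 in STAT3-deficient cells, between the cytokines there and for the IL-27 difference.

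The sample number correlated best with itself in 11 of 18 pairs (4 of 9 in STAT3-deficient and 7 of 9 in WT cells), a partial hint at a pairing. With it as a replicate block, the count was 5 with IL-6 and 2 with IL-27 in WT cells, 1 between the cytokines there, 3 with IL-27 in STAT3-deficient cells, 3 for the IL-6 difference and 4 in medium, and 0 in the other 3 comparisons. The gene added for the IL-6 difference was Klf13, at -0.40 (adjusted p = 0.0222).

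List counts moved too. Of FOXO and KLF2 genes, the 5 called with IL-27 in WT cells became 1 to 3 with the other scalings, no variance trend or without the WT IL-27 array 2, and the 2 in STAT3-deficient cells ranged from 0 with either other scaling to 6 with the block (1 without the medium array 3, 4 without the IL-6 array 1, 5 without the IL-27 array 3). Of TGF-beta genes, the 3 called with IL-6 in WT cells became 5 with array weights or the block, the 1 with IL-27 in WT cells became 2 or 3, the 0 between the cytokines in WT cells became 1 with the block or without the WT IL-27 array 3, and the 2 in STAT3-deficient cells became 0 or 1. The 1 in the IL-6 difference became 0 under 13 alternatives. The 4 FOXO and KLF2 genes called between the cytokines in WT cells became 2 with centring. Of cofactors, the 1 with IL-27 in WT cells became 2, the 2 in STAT3-deficient cells became 1 and the 0 in the IL-6 difference became 1, each under some alternatives. Of the rest of the family, the 0 with IL-27 in STAT3-deficient cells became 1 under 4 alternatives. In medium, 6 FOXO and KLF2 genes became 12 with centring and as few as 1 on leaving out single arrays (WT medium 2), 9 TGF-beta genes became 2 with centring, 6 cofactors became 2 with the covariate, and the 1 of the rest of the family became up to 4. With 3 arrays per group, the SEs of Klf4 (0.27) and Klf10 (0.35) are too large for a change of 1.5-fold to be called.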
